A study of Mus musculus with 18 samples.

Results

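The 9 genes described here encode the epidermal growth factor (EGF) receptor family and its ligands. They are the ligand genes Epgn, Areg, Ereg, Btc, Tgfa and Hbegf and the receptor genes Egfr, Erbb2 and Erbb3. They were taken by symbol from a table of coding-sequence counts that held 20655 genes, and all 9 symbols were found once. The libraries came from mouse epidermis at E18.5, collected after shRNA had been injected in utero at E9.5. The 3 conditions were HrasG12V epidermis given an Eif2b5 shRNA (HrasG12V shEif2b5), HrasG12V epidermis given a scrambled control shRNA (HrasG12V shScram) and WT epidermis given that control (WT shScram). Each condition had 3 libraries of ribosome footprints, which are the stretches of mRNA covered by translating ribosomes, and 3 libraries of RNA, 18 in all. HrasG12V encodes an oncogenic, constitutively active form of the small GTPase HRAS, and Eif2b5 encodes the catalytic subunit of the exchange factor that recharges translation initiation factor eIF2. The HrasG12V strain is labelled FR-HrasG12V, and the WT strain carries at Gt(ROSA)26Sor the reporter allele tm4(ACTB-tdTomato,-EGFP)Luo/J, so strain and Hras genotype cannot be told apart. All embryos had received an shRNA, and no WT shEif2b5 group was analysed here. One WT library, footprint library 1, is labelled Rosa26 under genotype.

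The ligands are made as membrane-anchored precursors, cut free at the cell surface by ADAM proteases, and bind EGFR on the same or neighbouring cells. EGFR then pairs with itself or with ERBB2 or ERBB3. ERBB2 has no known ligand of its own, and ERBB3 has little kinase activity and relies on its partner. In keratinocytes the active receptors signal through adaptor proteins to RAS and ERK, and drive proliferation and wound closure. Several of the ligand genes are known in other settings as transcriptional outputs of RAS and ERK, which makes up an autocrine loop.

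Coding-sequence totals ran from 3319175 to 4933298 in the footprint libraries and from 1771365 to 5505386 in the RNA libraries. HrasG12V shScram RNA libraries 1 and 3 stood apart on the first principal component of RNA, at 40.8 and 40.3, against 1.3 for library 2 of that group, -26.8 to -9.4 for HrasG12V shEif2b5 and -13.9 to -3.0 for WT shScram. RNA differences are therefore also given without those 2 libraries for family and pathway genes called in any RNA fit, and where the sign changed. So are the whole-table counts of called genes that moved. Other RNA values are given with all libraries only. HrasG12V shEif2b5 footprint library 1 differed from libraries 2 and 3 of its group by a chi-square per degree of freedom of 21.7 and 22.4, against 6.08 between those 2, and had a suprabasal marker sum of 22656 CPM, against 69083 and 68355. Eif2b5 did not pass the test in any comparison. Its RNA was at 134, 128 and 143 reads scaled to library size (CPM) in HrasG12V shEif2b5, 127, 388 and 145 in HrasG12V shScram, against 158, 179 and 159 in WT shScram, so that the knockdown and scrambled RNA libraries overlapped. Eif2b5 footprints were at 78.5 to 95.4 CPM in HrasG12V shEif2b5, 91.9 to 102.4 in HrasG12V shScram and 101.8 to 105.7 in WT shScram. Those of HrasG12V shEif2b5 overlapped with HrasG12V shScram and lay below WT shScram. In that last comparison 7.75% of tested genes were lower without overlap. The counts carry no information on the G12V allele. The labelled basal cell identity was checked by markers. The 7 basal keratinocyte markers summed to 13513 to 15561 footprint CPM in HrasG12V shEif2b5, 10231 to 14422 in HrasG12V shScram and 8773 to 13023 in WT shScram, but the 6 suprabasal markers found in the table summed to more, at 22656 to 69083, 30954 to 37683 and 21691 to 43671 in the same order. Melanocyte markers summed to 1183 to 1606 footprint CPM over the 9 libraries and dermal fibroblast markers to 152 to 1041, a spread seen within WT shScram alone. Immune and endothelial markers summed to at most 22.5 and 15.1 footprint CPM. The erythroid list rested on 1 of its 4 markers, Alas2, since the other 3 were at 0 in every library. In bulk libraries, fewer cells of a type and less RNA per cell cannot be told apart.

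The ligands were rare messages and the receptors abundant ones. Levels are CPM after TMM scaling within a library kind, and are divided by coding length in kb where levels of different genes are set side by side. The 6 ligands together came to 46.7 to 63.1 footprint CPM per kb in HrasG12V shEif2b5, 61.1 to 79.7 in HrasG12V shScram and 21.1 to 30.6 in WT shScram. Neither HrasG12V group overlapped with WT shScram, while the HrasG12V groups overlapped each other. The 3 receptors together came to 180 to 188, 170 to 190 and 166 to 193 footprint CPM per kb in the same order, and all 3 groups overlapped. The mean ratio of ligand to receptor level was 0.291 ± 0.045 in HrasG12V shEif2b5, 0.376 ± 0.038 in HrasG12V shScram and 0.156 ± 0.031 in WT shScram (SD, n = 3 each). The mean RNA ratio was 0.129, 0.163 and 0.0620 in the same order. In RNA the HrasG12V groups overlapped, at 0.118 to 0.143 in HrasG12V shEif2b5 and 0.142 to 0.176 in HrasG12V shScram. HrasG12V shScram RNA library 2, which did not stand apart on the first principal component, was the lowest of its group. In RNA both parts of the ratio differed, since the receptor sum was 250 to 298 CPM per kb in HrasG12V shEif2b5 and 237 to 267 in HrasG12V shScram, below the 303 to 314 of WT shScram, while the ligand sum was 31.9 to 38.4 and 37.8 to 44.4, above the 17.2 to 22.2 of WT shScram. Merkel cell markers moved the other way, at 20.1 to 35.6 footprint CPM in HrasG12V shEif2b5 and 16.9 to 29.1 in HrasG12V shScram, against 33.7 to 48.3 in WT shScram, and their part in the ligand sum was not tested. The sums were given no test, since the genes summed were chosen with results of these data known.

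**Figure D1:**
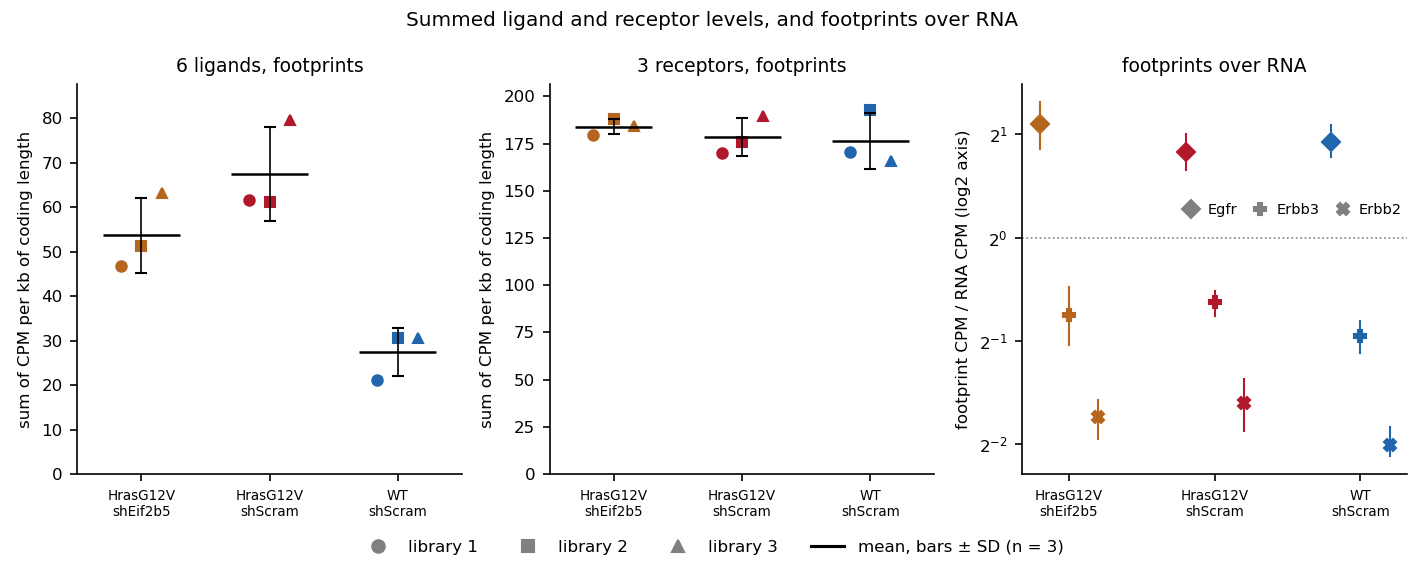
Left and middle, the summed footprint level of the 6 ligands and of the 3 receptors in CPM per kb of coding length, with each library as a point, the mean as a line and the SD as a bar (n = 3). Right, footprint CPM divided by RNA CPM on a log2 axis for each receptor, with lines spanning the lowest and highest of the 9 pairings of libraries in a condition. The ligand sum sits at 21.1 to 30.6 in WT shScram and at 46.7 or more in both HrasG12V groups, and Egfr lies above 1 and Erbb2 and Erbb3 below 1 in every condition.

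Epgn, Ereg, Areg and Btc lie side by side on chromosome 5, within 376 kb (chr5:91027464-91402994, GRCm38, GENCODE M21). The first 3 are read from the plus strand and Btc from the minus strand. Tgfa is on chromosome 6 (chr6:86195223-86275719, plus strand) and Egfr and Erbb2 are on chromosome 11, apart from each other. The sequences before the starts of Epgn and Areg are shown because Epgn carries the one called difference and Areg is the neighbour whose footprints did not overlap between the HrasG12V and WT groups. They are RefSeq sequence of GRCm38.p6, cut so that no base lies inside the gene as GENCODE draws it. Epgn is at chr5:91027267-91027463 and Areg at chr5:91139349-91139598, both on the plus strand, and capitals mark motif matches.
Epgn: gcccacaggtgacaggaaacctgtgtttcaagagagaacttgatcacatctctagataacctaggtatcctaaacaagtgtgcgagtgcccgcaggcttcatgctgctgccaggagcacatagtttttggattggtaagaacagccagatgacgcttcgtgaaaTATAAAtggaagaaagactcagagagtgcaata
Areg: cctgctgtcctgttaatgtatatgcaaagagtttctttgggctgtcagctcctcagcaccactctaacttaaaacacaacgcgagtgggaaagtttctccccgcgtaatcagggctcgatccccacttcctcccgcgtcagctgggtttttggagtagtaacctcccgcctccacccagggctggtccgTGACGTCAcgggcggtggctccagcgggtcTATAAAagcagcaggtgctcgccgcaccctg
The AP-1 motif TGANTCA, the cyclic AMP response element TGACGTCA, the ETS motif CCGGAAGT and the TATA box TATAAA were searched on both strands. Epgn held the TATA box starting 33 bases before the window's end, and Areg held the TATA box starting at 31 and the cyclic AMP response element starting at 61. Among 32851 mouse windows of 250 bases, 12.4% held the TATA box, 1.55% the cyclic AMP response element, 2.88% the ETS motif and 6.75% the AP-1 motif. The windows of Btc, Tgfa, Egfr and Erbb2 held none of the 4 motifs. Hbegf was not searched, and no upstream sequence was available for Ereg and Erbb3. The cut left 197 bases for Epgn and 236 for Erbb2, fewer than the 250 behind those shares. A match describes letters only and says nothing of whether a factor binds.

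Epgn, which encodes epigen, a low-affinity EGFR ligand, was the member with the clearest difference. Epgn footprints were at 6.64, 6.69 and 4.0 CPM in HrasG12V shEif2b5, 11.6, 8.19 and 11.9 CPM in HrasG12V shScram, against 1.95, 0.907 and 5.01 CPM in WT shScram. Every HrasG12V shScram library was above every library of the other groups, and WT shScram library 3, the highest of its group, reached into the HrasG12V shEif2b5 range. The counts behind these levels were small, at 33, 30 and 18 in HrasG12V shEif2b5, 52, 30 and 53 in HrasG12V shScram, against 7, 4 and 20 in WT shScram. Epgn rose in HrasG12V shScram against WT shScram by 2.02 on the log2 scale (SE 0.42, 95% interval 1.16 to 2.90, adjusted p = 0.0164 in edgeR's quasi-likelihood test). It was the 1 of 9 members called there at an adjusted p under 0.05, in a comparison where 1.70% of all 11448 tested genes were called and 10.4% were higher without overlap. Epgn reached the filter level of 2.22 CPM in all 3 libraries of each HrasG12V group but in 1 WT shScram library. It thus entered the test largely through the groups where it was high. With no filter, edgeR gave a log2 difference of 2.02 (adjusted p = 0.00186). With the filter, the difference lost its call in 4 of the 6 fits that left out a library: without HrasG12V shScram library 1 (adjusted p = 0.0903) or 3 (adjusted p = 0.0839), and without WT shScram library 1 (adjusted p = 0.0803) or 2 (adjusted p = 0.0786). Without WT shScram library 3 the log2 difference was 2.90 (adjusted p = 0.000849).

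Between the HrasG12V conditions, Epgn footprints were lower by -0.87 log2 in HrasG12V shEif2b5 than in HrasG12V shScram (SE 0.36, 95% interval -1.63 to -0.11) and did not overlap. The unadjusted p was 0.0267 and edgeR's adjusted p was 0.994, so the difference was not called. No gene of 11448 was called in that comparison, while 4.53% had an unadjusted p under 0.05 (519 genes) and 5.59% were lower without overlap. The DESeq2 Wald test called 1 gene there. Leaving out 1 library gave 0 to 31 called genes, with 31 without HrasG12V shEif2b5 library 1, none of them a member, and an Epgn difference of -0.98 in that fit. HrasG12V shEif2b5 against WT shScram gave a log2 difference of 1.15 for Epgn (SE 0.44, edgeR adjusted p = 0.227), where 0.970% of tested genes were called. Without WT shScram library 3 that value was 2.04, and it passed (adjusted p = 0.0196). The 3 comparisons share groups, so none of them is independent of the others.

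Epgn RNA was near the limit of detection. It was at 0.370, 1.77 and 0.470 CPM in HrasG12V shEif2b5, 4.01, 3.33 and 4.96 CPM in HrasG12V shScram, against 0, 0.777 and 0.904 CPM in WT shScram. All HrasG12V shScram libraries were above all of the others, with library 2, which did not stand apart on the first principal component, at 3.33 CPM from 6 reads. The counts were 1, 5 and 1 in HrasG12V shEif2b5, 21, 6 and 23 in HrasG12V shScram, against 0, 2 and 5 in WT shScram, and Epgn fell below the filter on low counts that the test used. With no filter, edgeR gave HrasG12V shScram against WT shScram a log2 difference of 2.64 (adjusted p = 0.0131), and HrasG12V shEif2b5 against HrasG12V shScram one of -2.16 (adjusted p = 0.0369). Without HrasG12V shScram RNA libraries 1 and 3, which leaves that group 1 library assumed to vary like the others, they were 2.27 (adjusted p = 0.376) and -1.81 (adjusted p = 0.583). The first lost its call without WT shScram library 1 (adjusted p = 0.0823). The second lost it without HrasG12V shEif2b5 library 1 (adjusted p = 0.174) or 3 (adjusted p = 0.181), and without HrasG12V shScram library 3 (adjusted p = 0.107). Among the 11096 RNA genes that passed the filter, 13.7% were higher without overlap in HrasG12V shScram than in WT shScram, and 7.70% were called. In HrasG12V shEif2b5 against HrasG12V shScram, 15.2% were lower without overlap and 13.0% were called. Other marker sums also set HrasG12V shScram RNA apart. Melanocyte markers summed to 441 to 567 CPM in HrasG12V shEif2b5 and 573 to 709 CPM in HrasG12V shScram, against 371 to 553 CPM in WT shScram, and 2 of the 6 were called higher in HrasG12V shScram than in WT shScram and 1 lower in HrasG12V shEif2b5 than in HrasG12V shScram. Basal markers summed to 13318 to 15461, 8569 to 11860 and 12726 to 17141 CPM in the same order, with HrasG12V shScram below both. Of the 7, 1 was called lower in HrasG12V shScram than in WT shScram, where 2 had a log2 difference above 0. In HrasG12V shEif2b5, 2 were called higher than in HrasG12V shScram. The suprabasal sums, at 48485 to 60631, 33972 to 63605 and 65396 to 101820 CPM, were lower in both HrasG12V groups than in WT shScram. The 6 genes summed did not all go that way, as 1 was called higher in HrasG12V shScram than in WT shScram and none lower. Against WT shScram, 2 of the 6 had a log2 difference above 0 in each HrasG12V group. The part of these cell types in the Epgn result was not tested.

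**Figure D2:**
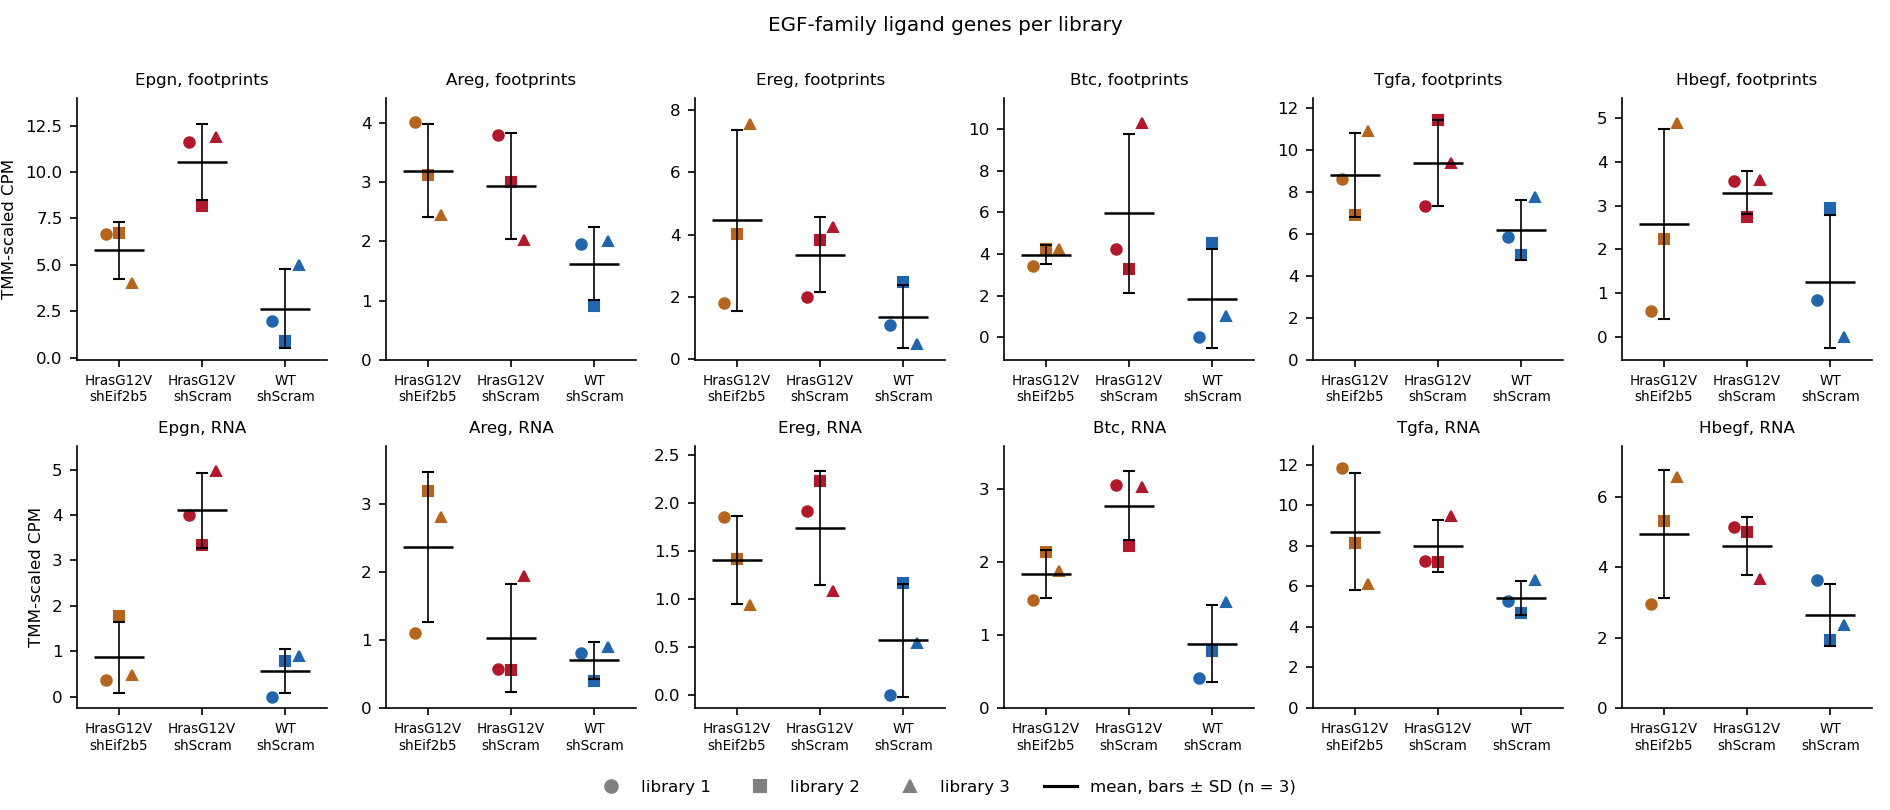
Footprint (top) and RNA (bottom) levels of the 6 ligand genes in TMM-scaled CPM, with each library as a point shaped by its library number, the mean as a line and the SD as a bar (n = 3). Axes differ between panels. Epgn footprints in HrasG12V shScram, at 8.19 to 11.9 CPM, lie above all other libraries. Among the other ligands, only Areg footprints separate groups, with both HrasG12V groups above WT shScram. In RNA the groups of Btc do not overlap. Areg RNA in HrasG12V shEif2b5, and Tgfa and Hbegf RNA in HrasG12V shScram, lie above WT shScram without overlap.

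Areg encodes amphiregulin, a keratinocyte growth factor that binds EGFR. Its footprints were at 4.02, 3.12 and 2.45 CPM in HrasG12V shEif2b5, 3.79, 3.00 and 2.02 CPM in HrasG12V shScram, against 1.95, 0.907 and 2.00 CPM in WT shScram. Both HrasG12V groups lay wholly above WT shScram, though the lowest HrasG12V shScram library and the highest WT shScram library were almost level, at 9 and 8 reads. The log2 difference from WT shScram was 1.00 in HrasG12V shEif2b5 (SE 0.48, edgeR adjusted p = 0.342) and 0.87 in HrasG12V shScram (SE 0.49, adjusted p = 0.441), and neither was called. Groups that do not overlap, with the HrasG12V group higher, were seen for 8.32% and 10.4% of tested genes in those comparisons. Areg RNA had at most 9 reads in any library and was not tested. In HrasG12V shEif2b5 it was at 1.11 to 3.19 CPM, above the 0.389 to 0.904 CPM of WT shScram. Of genes tested in RNA, 7.68% were higher without overlap in that comparison.

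Ereg encodes epiregulin, which binds EGFR and ERBB4. Its footprints were at 1.81, 4.01 and 7.56 CPM in HrasG12V shEif2b5, 2.01, 3.82 and 4.26 CPM in HrasG12V shScram, against 1.12, 2.49 and 0.501 CPM in WT shScram. Library 1 was the low one in each HrasG12V group and fell inside the WT range. The log2 difference from WT shScram was 1.63 in HrasG12V shEif2b5 (SE 0.59, unadjusted p = 0.0119, edgeR adjusted p = 0.201) and 1.23 in HrasG12V shScram (SE 0.62, adjusted p = 0.374). Ereg RNA had 11 reads in HrasG12V shEif2b5, 19 in HrasG12V shScram and 6 in WT shScram. Its RNA levels overlapped between all groups and fell below the filter.

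Btc encodes betacellulin, which activates EGFR and ERBB4. Its footprints were at 3.42, 4.24 and 4.23 CPM in HrasG12V shEif2b5, 4.24, 3.28 and 10.3 CPM in HrasG12V shScram, against 0, 4.53 and 1.00 CPM in WT shScram. HrasG12V shScram and WT shScram both scattered, with 1 high library each, and WT shScram library 2, with 20 reads beside the 0 and 4 of its group, was above all HrasG12V shEif2b5 libraries. The log2 difference between HrasG12V shScram and WT shScram was 1.61 (SE 0.74, 95% interval -0.02 to 3.26, edgeR adjusted p = 0.357). Without WT shScram library 2 it was 3.44 and passed (adjusted p = 0.0477). HrasG12V shEif2b5 gave 1.01 against WT shScram (SE 0.77, adjusted p = 0.606). Btc RNA was at 1.48 to 2.13 CPM in HrasG12V shEif2b5, 2.22 to 3.05 in HrasG12V shScram and 0.405 to 1.45 in WT shScram. The groups did not overlap, on 14, 34 and 11 reads in that order. With no filter, edgeR gave 1.49 for HrasG12V shScram against WT shScram (adjusted p = 0.186) and -0.63 for HrasG12V shEif2b5 against HrasG12V shScram (adjusted p = 0.592). Of genes tested in RNA, 13.7% were higher without overlap in the first and 15.2% lower in the second.

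Tgfa encodes transforming growth factor alpha, a major EGFR ligand of keratinocytes and hair follicles, and was the ligand with the highest level per kb in WT shScram. Its footprints were at 8.65, 6.91 and 10.9 CPM in HrasG12V shEif2b5, 7.36, 11.5 and 9.41 CPM in HrasG12V shScram, against 5.86, 4.99 and 7.76 CPM in WT shScram. The groups overlapped through WT shScram library 3. The log2 difference from WT shScram was 0.51 in HrasG12V shEif2b5 (SE 0.28, edgeR adjusted p = 0.426) and 0.59 in HrasG12V shScram (SE 0.28, unadjusted p = 0.0472, adjusted p = 0.341). Tgfa RNA in HrasG12V shScram was at 7.26, 7.22 and 9.5 CPM, above the 5.26, 4.66 and 6.33 CPM of WT shScram, and the log2 difference of 0.54 was not called (SE 0.32, adjusted p = 0.304). As many as 13.7% of genes tested in RNA were higher without overlap there.

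Hbegf, on chromosome 18, encodes heparin-binding EGF-like growth factor, which acts in keratinocyte migration. Its footprints were at 0.603, 2.23 and 4.89 CPM in HrasG12V shEif2b5, 3.57, 2.73 and 3.59 CPM in HrasG12V shScram, against 0.837, 2.95 and 0 CPM in WT shScram. HrasG12V shScram was even, while the other groups scattered between 0 and 22 reads. The log2 difference of 1.31 between HrasG12V shScram and WT shScram was not called (SE 0.80, edgeR adjusted p = 0.500), nor was the 0.93 of HrasG12V shEif2b5 against WT shScram (SE 0.82, adjusted p = 0.649). Hbegf RNA was at 5.16, 5.0 and 3.67 CPM in HrasG12V shScram, just above the 3.64, 1.94 and 2.35 CPM of WT shScram, with a log2 difference of 0.81 (SE 0.44, adjusted p = 0.251). In that RNA comparison 13.7% of tested genes were higher without overlap.

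As a group, the 6 ligands had footprint log2 differences above 0 in 6 of 6 cases for HrasG12V shEif2b5 against WT shScram (median 1.00) and in 6 of 6 for HrasG12V shScram against WT shScram (median 1.27). Over all tested genes, 49.2% and 48.0% were above 0 and the medians were -0.01 and -0.01. HrasG12V shEif2b5 against HrasG12V shScram gave 2 of 6 above 0 and a median of -0.23, against 50.1% and 0.00 over all tested genes. These counts are descriptions: 5 of the 6 ligands reached the filter level of 2.22 CPM in at most 1 WT shScram library, so they entered the test largely through the HrasG12V libraries. Tgfa reached it in all 3 libraries of every group. Of the 5 non-Epgn ligands, none was called in any of the 3 footprint comparisons.

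**Figure D3:**
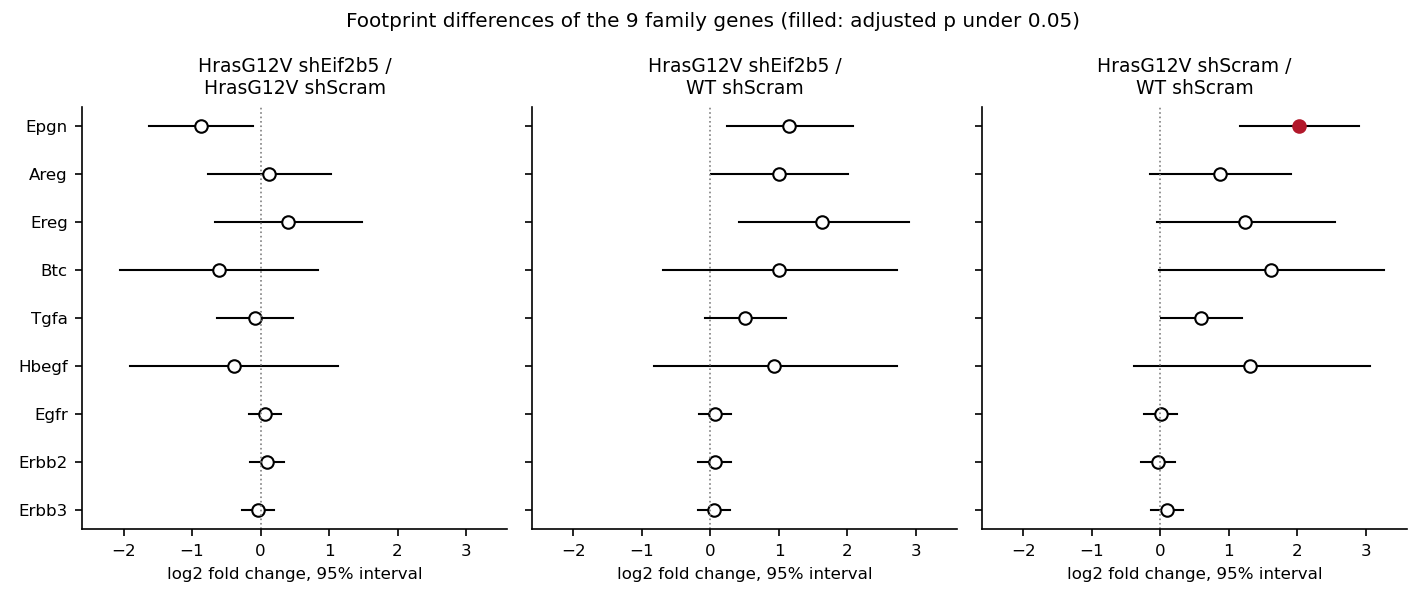
Footprint log2 fold changes of the 9 genes with 95% intervals from edgeR for the 3 comparisons named above each panel, each with its first-named condition on top of the ratio. The filled point, Epgn in HrasG12V shScram against WT shScram at 2.02, is the single call, and the 3 receptors lie at 0.09 or less from 0, with intervals far narrower than those of the ligands.

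The make-up of the ligand pool differed between footprints and RNA. Epgn took 24.6% ± 9.3 of the summed ligand footprint level per kb in HrasG12V shEif2b5, 34.4% ± 6.1 in HrasG12V shScram and 20.9% ± 14.7 in WT shScram. Tgfa took 29.7% ± 4.7, 25.6% ± 7.2 and 41.8% ± 10.9 in the same order (SD, n = 3 each). In RNA, Epgn took 19.3% to 24.5% in HrasG12V shScram, against 2.32% to 10.1% in HrasG12V shEif2b5 and 0% to 9.67% in WT shScram, so that HrasG12V shScram lay above both. Tgfa held the highest mean share of ligand RNA in every condition, at 44.7%, 35.1% and 51.5% in HrasG12V shEif2b5, HrasG12V shScram and WT shScram. Hbegf took 23.0% ± 9.8, 18.2% ± 4.4 and 22.9% ± 9.6 of ligand RNA in the same order, more than Epgn in HrasG12V shEif2b5 and WT shScram. Areg and Hbegf each averaged under 10% of the footprint level in all 3 conditions.

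Receptor footprints overlapped between all groups, while receptor RNA was less even. EGFR is the main growth factor receptor of basal keratinocytes. Egfr footprints were at 325, 334 and 351 CPM in HrasG12V shEif2b5, 314, 306 and 348 CPM in HrasG12V shScram, against 313, 355 and 298 CPM in WT shScram, and all groups overlapped. The log2 difference was 0.06 between HrasG12V shEif2b5 and HrasG12V shScram (95% interval -0.18 to 0.30), 0.06 between HrasG12V shEif2b5 and WT shScram (-0.17 to 0.30) and 0.00 between HrasG12V shScram and WT shScram (-0.24 to 0.24). The intervals leave out a footprint difference of the size fitted for Epgn, and include smaller ones. Egfr RNA was at 150, 180 and 141 CPM in HrasG12V shEif2b5, 177, 173 and 194 CPM in HrasG12V shScram, against 174, 166 and 171 CPM in WT shScram. No Egfr RNA difference was called, and the largest in size was -0.21 for HrasG12V shEif2b5 against HrasG12V shScram (SE 0.14, edgeR adjusted p = 0.320).

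Erbb2, the ligand-less partner receptor, had footprints at 157, 173 and 164 CPM in HrasG12V shEif2b5, 144, 154 and 165 CPM in HrasG12V shScram, against 150, 176 and 147 CPM in WT shScram. The footprints of all groups overlapped, and the log2 differences lay between -0.03 and 0.09 (SE 0.12 each). Its RNA was less even, at 610, 516 and 522 CPM in HrasG12V shEif2b5, 427, 526 and 452 CPM in HrasG12V shScram, against 630, 634 and 638 CPM in WT shScram. The WT shScram libraries were above all libraries of both HrasG12V groups. The RNA log2 difference of -0.44 between HrasG12V shScram and WT shScram was not called by edgeR (SE 0.14, adjusted p = 0.0670) and was called by the DESeq2 Wald test (-0.45, adjusted p = 0.0268), in a comparison where edgeR called 7.70% of tested genes and 12.4% were lower without overlap. Without HrasG12V shScram RNA libraries 1 and 3 it was -0.27 (adjusted p = 0.569), and without library 2 it was -0.53 and passed (adjusted p = 0.0111). Summed basal marker RNA, given with Epgn above, was lower in HrasG12V shScram than in WT shScram and inside the WT range in HrasG12V shEif2b5. The part of basal cells in the Erbb2 value was not tested. HrasG12V shEif2b5 against WT shScram gave -0.21 (SE 0.14, adjusted p = 0.828), where 0.324% of tested genes were called and 8.34% were lower without overlap.

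Erbb3, on chromosome 10, encodes the kinase-poor partner and had footprints at 203, 210 and 187 CPM in HrasG12V shEif2b5, 191, 212 and 211 CPM in HrasG12V shScram, against 186, 204 and 187 CPM in WT shScram, with overlap throughout. Its RNA was at 384, 335 and 293 CPM in HrasG12V shEif2b5, 305, 323 and 322 CPM in HrasG12V shScram, against 357, 406 and 357 CPM in WT shScram. HrasG12V shScram lay below WT shScram in RNA, by a log2 difference of -0.24 that was not called (SE 0.14, edgeR adjusted p = 0.303), and HrasG12V shEif2b5 overlapped both. Of all genes tested in RNA, 12.4% were lower without overlap in HrasG12V shScram than in WT shScram. Erbb3 is also a gene of melanocytes and Schwann cells. Melanocyte markers summed to 441 to 567 RNA CPM in HrasG12V shEif2b5, 573 to 709 in HrasG12V shScram and 371 to 553 in WT shScram, and Schwann cell markers to at most 31.5 RNA CPM in any library. Their part in the Erbb3 level was not tested.

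**Figure D4:**
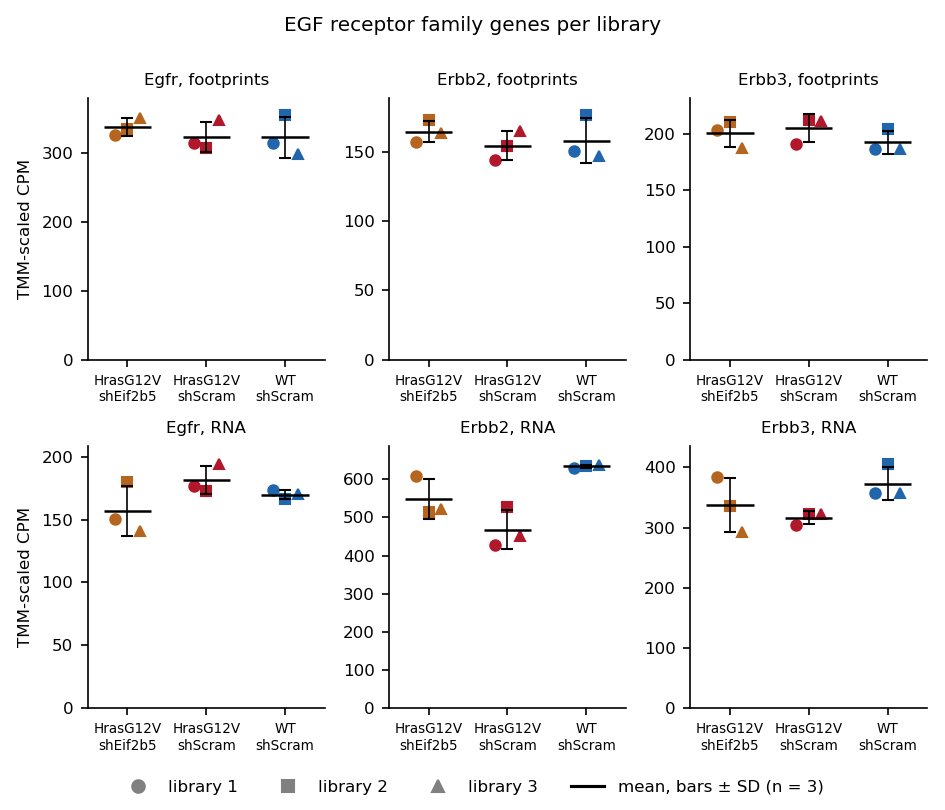
Footprint (top) and RNA (bottom) levels of the 3 receptor genes in TMM-scaled CPM, with each library as a point shaped by its library number, the mean as a line and the SD as a bar (n = 3). Footprints overlap between all groups, while WT shScram Erbb2 RNA, at 630 to 638 CPM, lies above both HrasG12V groups.

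The receptors ranked differently in footprints and in RNA. Per kb of coding length, Egfr took 49.2% ± 1.8 of the 3 receptors' footprint level in HrasG12V shEif2b5, 48.5% ± 1.6 in HrasG12V shScram and 49.1% ± 0.6 in WT shScram, but 15.6% ± 2.2, 19.4% ± 1.7 and 14.9% ± 0.6 of their RNA level in the same order (SD, n = 3 each). Erbb2 took 23.7% ± 0.6, 22.9% ± 0.4 and 23.7% ± 0.5 of the footprint level but 53.6% ± 2.4, 49.3% ± 2.7 and 54.8% ± 1.1 of the RNA level. In footprints the order was Egfr, Erbb3, Erbb2, and in RNA it was Erbb2, Erbb3, Egfr, in every condition.

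The ratio of footprint to RNA CPM set the receptors apart in the same way. Egfr had a ratio of 2.14 in HrasG12V shEif2b5, 1.78 in HrasG12V shScram and 1.89 in WT shScram, above 81.4%, 80.1% and 78.4% of the 10793 genes tested in both kinds of library. Erbb3 had 0.593, 0.647 and 0.515, and Erbb2 had 0.299, 0.329 and 0.249, which put Erbb2 above only 10.2%, 9.26% and 6.42% of genes. Across the 9 pairings of libraries in a condition, the lowest Egfr ratio was 1.58 and the highest Erbb2 ratio was 0.386. The ratio compares genes within these libraries and holds any difference in how footprints and RNA were captured. The median ratio over all tested genes was 0.998, 0.973 and 0.993.

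Whether the footprint difference departed from the RNA difference was tested for the 5 members measured in both kinds, with footprint and RNA libraries taken as unpaired. None was called, in comparisons where 2.11% (HrasG12V shEif2b5 against HrasG12V shScram), 0% (HrasG12V shEif2b5 against WT shScram) and 1.17% (HrasG12V shScram against WT shScram) of 10793 genes were. In the one with no call over the whole table, 634 genes (5.87%) had an unadjusted p under 0.05. Erbb2 had the smallest p of the 5, with a footprint difference that exceeded its RNA difference by 0.41 log2 in HrasG12V shScram against WT shScram (SE 0.18, unadjusted p = 0.0315, edgeR adjusted p = 0.259). Erbb3 had 0.33 there (SE 0.18, adjusted p = 0.366) and Egfr -0.09 (SE 0.17, adjusted p = 0.854). Tgfa (SE 0.42) and Hbegf (SE 0.90) had wider SEs and were not called.

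The rest of the pathway was counted in 4 lists with 30 genes, chosen with earlier results of these data known. Of the other family genes (Egf, Nrg1, Nrg2, Nrg3, Nrg4 and Erbb4), only Nrg2, a neuregulin, passed the filter, and its footprint log2 differences were 0.36 for HrasG12V shEif2b5 against WT shScram (SE 0.40) and 0.27 for HrasG12V shScram against WT shScram (SE 0.41), neither called. Erbb4, the remaining receptor of the family, had 15 footprint reads in all 9 libraries together, Egf 3 and Nrg3 0. All 5 ligand release genes were tested and none was called in footprints, RNA or their difference. Adam10 and Adam17, the proteases that cut the precursors, had the highest mean footprint levels of that list, at 100.2 and 33.8 CPM per kb. Adam10 had a footprint log2 difference of -0.13 between HrasG12V shEif2b5 and HrasG12V shScram (SE 0.12) and 0.17 between HrasG12V shScram and WT shScram (SE 0.12).

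Of the 8 adaptor genes, 7 were tested and 1 was called. Sos2, a guanine exchange factor that loads RAS, had RNA lower by -0.52 log2 in HrasG12V shEif2b5 than in HrasG12V shScram (SE 0.15, edgeR adjusted p = 0.0321), a comparison in which 13.0% of tested genes were called. The call did not hold without HrasG12V shScram RNA libraries 1 and 3 (-0.45, adjusted p = 0.419), nor without HrasG12V shEif2b5 library 1 (adjusted p = 0.130) or 3 (adjusted p = 0.134) or HrasG12V shScram library 1 (adjusted p = 0.137) or 3 (adjusted p = 0.0578). Sos2 footprints differed by -0.14 (SE 0.16, adjusted p = 0.994). All 11 inhibitors and endocytic regulators were tested and none was called. Lrig1 and Lrig3, transmembrane regulators of the receptors, had the highest mean footprint levels among them, at 58.4 and 40.6 CPM per kb. Lrig1 footprints were lower without overlap in HrasG12V shScram than in WT shScram, by a log2 difference of -0.16 that was not called (SE 0.11, adjusted p = 0.592), as 9.89% of tested genes were lower without overlap there.

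The genes flanking the chromosome 5 cluster were looked up after its values were seen. Mthfd2l, which encodes a mitochondrial folate enzyme, ends 6.1 kb before Epgn, and Parm1, which encodes a mucin-like membrane protein, begins 114.6 kb beyond Btc. Mthfd2l footprints were at 7.64, 5.13 and 4.23 CPM in HrasG12V shEif2b5, 6.02, 5.19 and 5.60 CPM in HrasG12V shScram, against 8.65, 4.99 and 4.76 CPM in WT shScram, with no call. Parm1 footprints were at 29.8, 31.7 and 38.5 CPM in HrasG12V shEif2b5, 27.0, 33.3 and 30.0 CPM in HrasG12V shScram, against 43.8, 59.4 and 44.1 CPM in WT shScram, and both HrasG12V groups lay below WT shScram. That pattern was seen for 7.75% of tested genes in HrasG12V shEif2b5 against WT shScram and for 9.89% in HrasG12V shScram against WT shScram. Parm1 fell in HrasG12V shScram against WT shScram, with a log2 difference of -0.71 (SE 0.16, edgeR adjusted p = 0.0272), the opposite sign to Epgn. That call was lost without HrasG12V shScram library 1 (adjusted p = 0.170), 2 (adjusted p = 0.0595) or 3 (adjusted p = 0.114) and without WT shScram library 2 (adjusted p = 0.184).

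The genes whose footprint profile over the 9 libraries was most like that of Epgn were Sugt1 (Pearson r 0.986), Ccdc47 (0.974), Anxa5 (0.966), Rerg (0.963) and Uchl3 (0.963), out of 8799 genes compared. For Egfr they were Sh3rf2 (0.922), Mavs (0.893), Eps8l1 (0.878), Gbf1 (0.873) and Syngr2 (0.857). These are the highest of many values over libraries that share their groups and their preparation, and are given as a description.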

How the data were processed

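Ribosome footprints and RNA were measured in 18 libraries. Bowtie, TopHat2, HTSeq and the mm10 build are named in the submitters' processing notes, and per the labels' protocols cycloheximide was present during the dispase and trypsin steps. Versions, roles and the strand setting are not given in the sources used here. The deposited table holds the authors' raw read counts over coding sequences, one row per gene symbol, with no normalization. No per-sample column was left out.

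The members and lists were chosen with earlier results of these data known. Each kind of library was fitted over its whole table in edgeR 4.0.16 (R 4.3.3) with filterByExpr (minimum count 10, minimum total 15), TMM scaling and a robust quasi-likelihood model over the 9 libraries. This tested 11448 genes in footprints (biological coefficient of variation 0.14) and 11096 in RNA (0.162). The departure of footprints from RNA (translation efficiency) was the interaction of condition and kind over 18 libraries, on 10793 genes. Calls needed an adjusted p (Benjamini-Hochberg, each comparison on its own) under 0.05. All 9 members were tested in footprints and 5 in RNA. Both steps were tested on simulated counts. The genes changed in the simulation had mean counts above those of every ligand, so recovery at ligand counts was not tested. CPM and shares came from the same scaling, and coding lengths from GENCODE M21.

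The alternatives were DESeq2 1.42.0 size factors, the DESeq2 Wald test, no filter, a replicate block, only the 2 conditions compared, leaving out each library (for translation efficiency, the same-numbered footprint and RNA library of a condition together), and leaving out HrasG12V shScram RNA libraries 1 and 3. The last with no filter, and the leave-one-out fits of Epgn RNA, Sos2 and Parm1, were added after seeing the data. All members are named. Other pathway genes are named where called or, in a list with no call, for the highest mean level. Libraries of 1 group differed beyond sampling noise, with chi-square values per degree of freedom of 3.52 to 22.4, so none were copies. No label says that libraries came from separate animals, so the p-values cover only how far these libraries spread, which may be technical. The smallest two-sided p of an exact permutation test with 3 libraries a group is 0.1, so none was used. Within a library kind, same-numbered libraries of different conditions did not deviate together (correlations of -0.31 to 0.30 between pairs), so they were not taken as pairs. Whether same-numbered footprint and RNA libraries were matched was not tested, and no fit took them as pairs. Dermal fibroblast sums kept 1 library order in both kinds, in WT shScram at 1041, 667 and 152 footprint CPM and 1971, 758 and 158 RNA CPM. Suprabasal sums in HrasG12V shEif2b5 did not, at 22656, 69083 and 68355 against 60631, 48485 and 60537.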

Additional observations from a re-analysis of the deposited data

How the results depend on the processing

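In footprints, RNA and translation efficiency, the number of members called was unchanged under DESeq2 size factors and the replicate block (1 called, Epgn, with a footprint log2 difference of 2.03 and adjusted p = 0.0218 for HrasG12V shScram against WT shScram). Fits to only the 2 conditions compared were run for footprints alone and also left it unchanged. With no filter, RNA gave 1 called member (Epgn) for HrasG12V shEif2b5 against HrasG12V shScram. It gave 1 (Epgn) for HrasG12V shScram against WT shScram, where the DESeq2 Wald test called 1 other (Erbb2). Leaving out 1 library gave 0 to 1 members in footprints for each HrasG12V condition against WT shScram, and in RNA 0 to 1 for HrasG12V shEif2b5 against HrasG12V shScram, with 0 to 2 for HrasG12V shScram against WT shScram. Without the division by coding length, shares of the ligand footprint level were 11.6% for Areg in HrasG12V shEif2b5, 8.58% for Areg and 9.34% for Hbegf in HrasG12V shScram, and the RNA share of Epgn in HrasG12V shScram was 18.3%.

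Differences that changed sign were uncalled and near 0 or of wide interval, and the cause was not tested. In HrasG12V shScram against WT shScram, the footprint log2 difference of Egfr was -0.0022 when only those conditions were fitted. Without HrasG12V shScram RNA libraries 1 and 3, HrasG12V shEif2b5 against HrasG12V shScram gave an RNA difference of -0.033 for Hbegf (-0.016 with no filter as well) and a translation efficiency difference of 0.028 for Erbb2. Leaving out 1 library, footprint differences for HrasG12V shEif2b5 against HrasG12V shScram ran from -0.089 to 0.37 for Areg, -0.21 to 0.79 for Ereg, -0.87 to 0.064 for Btc, -0.26 to 0.078 for Tgfa, -1.24 to 0.11 for Hbegf and -0.081 to 0.014 for Erbb3. For HrasG12V shScram against WT shScram they ran from -0.061 to 0.073 for Egfr and -0.094 to 0.050 for Erbb2. In RNA, HrasG12V shEif2b5 against HrasG12V shScram ran from -0.16 to 0.31 for Tgfa, -0.13 to 0.38 for Hbegf and -0.0026 to 0.19 for Erbb3. The translation efficiency fits each left out a same-numbered footprint and RNA library of a condition together. For Tgfa, their differences ran from -0.57 to 0.085 in HrasG12V shEif2b5 against HrasG12V shScram. In HrasG12V shScram against WT shScram they ran from -0.15 to 0.21 for Tgfa. HrasG12V shEif2b5 against WT shScram gave -0.51 to 0.14 for Tgfa and -0.61 to 1.8 for Hbegf.

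The number of genes called over the whole table moved more than the members did. Without HrasG12V shScram RNA libraries 1 and 3, the 1444 RNA calls of HrasG12V shEif2b5 against HrasG12V shScram became 17, the 36 of HrasG12V shEif2b5 against WT shScram became 124 and the 854 of HrasG12V shScram against WT shScram became 47; the translation efficiency calls of the first became 2 (from 228) and of the last 8 (from 126). The 111 footprint calls of HrasG12V shEif2b5 against WT shScram became 229 in the DESeq2 Wald test, 216 with no filter, 184 with the replicate block and 44 with only those conditions fitted, and the RNA calls there became 64 in the Wald test and 72 with no filter. Translation efficiency calls in the Wald test were 445 for HrasG12V shEif2b5 against HrasG12V shScram. For HrasG12V shScram against WT shScram they were 267, or 190 with no filter. Leaving out 1 library, the footprint calls ran from 0 to 31 for HrasG12V shEif2b5 against HrasG12V shScram, 37 to 407 for HrasG12V shEif2b5 against WT shScram and 73 to 559 (from 195) for HrasG12V shScram against WT shScram. In the same order the RNA calls ran from 197 to 3150, 12 to 20 and 189 to 2431. Translation efficiency calls ran from 1 to 948, 0 to 16 and 1 to 417. Each of those fits left out a same-numbered footprint and RNA library of a condition together. The shares of called genes in the report thus hold for these sets of libraries only. The ligands had 0 to 53 footprint reads a library and log2 SEs of 0.26 to 0.82, against 0.11 to 0.12 for the receptors, and the parts of depth and of scatter between libraries in this were not tested.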

Other observations

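Plcg1, which encodes phospholipase C gamma 1, an effector recruited by active EGFR, was singled out after its values were seen. It had the fourth smallest p of all genes in footprints for HrasG12V shEif2b5 against HrasG12V shScram, a comparison with no call. Its footprint log2 difference was 0.54 (SE 0.13, unadjusted p = 0.000784, edgeR adjusted p = 0.994), and the groups did not overlap, as for 5.5% of tested genes that were higher in HrasG12V shEif2b5. Against WT shScram it was 0.41 in HrasG12V shEif2b5 (SE 0.13, adjusted p = 0.151) and -0.12 in HrasG12V shScram (SE 0.14, adjusted p = 0.747). Plcg1 RNA differed by 0.08 between HrasG12V shEif2b5 and HrasG12V shScram (SE 0.13).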
